A study of Mus musculus with 4 samples.

Results

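The endoplasmic reticulum (ER) chaperones and the unfolded protein response were followed here through 10 mouse genes: Hspa5, Hyou1, Dnajb9, Sdf2l1, Calr, Pdia4, Creld2, Herpud1, Xbp1 and Atf6. They were chosen by symbol, as named components and targets of the response, from the 17621 genes in the deposited tables. All 10 were found, and all 10 had a mean of at least 1 CPM, the count scaled to a common library size. The libraries were made from total RNA of primary cortical neural stem cells of newborn (P0) mice, in a study of how depletion of the nucleoporin Seh1 affects gene expression while these cells proliferate and differentiate. Seh1, encoded by Seh1l, is a subunit of the nuclear pore's Y complex and also of GATOR2, a regulator of mTORC1. Control cells (Ctrl) had the genotype Seh1 f/f, with loxP-flanked Seh1 alleles. Depleted cells (iKO) had the genotype cmv-cre-ert,seh1 f/f, the same floxed alleles with a Cre recombinase fused to an estrogen receptor domain, under a broadly active viral promoter by its name. Both genotypes were sampled at day 0, in a growth medium that holds EGF and bFGF, and at day 3, after withdrawal of both factors to set off differentiation. The sources used here give neither a treatment that induces the recombinase nor the number of mice or cultures behind a library. Ctrl carries no recombinase, so the presence of Cre and the loss of Seh1 cannot be told apart.

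Secreted and membrane proteins fold in the ER. Hspa5 encodes BiP, the Hsp70 chaperone of that compartment, which binds unfolded chains and also holds the stress sensors in check. When unfolded chains build up, 3 sensors in the ER membrane respond: IRE1 (Ern1) splices the Xbp1 mRNA so that it encodes an active transcription factor, ATF6 is cut in the Golgi by the proteases of Mbtps1 and Mbtps2 to release a transcription factor, and PERK (Eif2ak3) slows translation and favours synthesis of ATF4. XBP1 and ATF6 act on genes for chaperones, folding enzymes and ER-associated degradation, and ATF4 on genes for amino acid supply and, through Ddit3 (CHOP), on cell death genes. In the developing cortex the response is known to influence how progenitors produce neurons.

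Each group had 1 library, so the spread between cultures is unknown for every difference below, and p-values were not computed. The libraries held between 19611788 and 21040590 expected counts. Levels are CPM after TMM scaling. A log2 ratio is that of CPM plus a pseudocount of 1, and a gene was called where this ratio reached 2-fold. Folds are ratios of CPM without the pseudocount, with a 95% interval that covers counting error only. Seh1l, the targeted gene, was 2.10-fold lower in iKO at day 0 (1.86 to 2.37), from 40.3 CPM to 19.2 CPM. At day 3 the fold was 3.01 (2.58 to 3.54), from 33.2 CPM to 11.03 CPM. The neural stem cell markers were present in all libraries, with Sox2 at 350 to 618 CPM and Nes at 165 to 849 CPM.

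In each library Calr, Hspa5 and Pdia4 had the 3 highest levels of the 10 genes on a per-length scale. Calr encodes calreticulin, the calcium-binding lectin chaperone of the ER lumen. Its deposited level was 375 FPKM (a count scaled by library size and transcript length) in Ctrl and 409 FPKM in iKO at day 0, and 416 and 352 FPKM at day 3. Hspa5 stood at 175 and 171 FPKM at day 0 and at 130 and 111 FPKM at day 3, in Ctrl and iKO. Pdia4, a protein disulfide isomerase that forms and rearranges disulfide bonds, lay between 49.3 and 55.1 FPKM. The order further down differed between the days. Hyou1, an Hsp70-like chaperone that works as a nucleotide exchange factor for BiP, ranked 4 at day 0 with 33.3 FPKM in Ctrl and 29.8 FPKM in iKO. At day 3 rank 4 belonged to Dnajb9, with 24.4 and 31.8 FPKM, which had ranked 8 in Ctrl and 7 in iKO at day 0. Dnajb9 (ERdj4) is a J-domain co-chaperone of BiP. The lowest of the 10 was Atf6 in both day 0 libraries, with 6.22 and 6.77 FPKM. In iKO at day 3 the lowest was Sdf2l1, a small ER protein that works with BiP and its J-domain partners, at 3.84 FPKM.

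**Figure D1:**
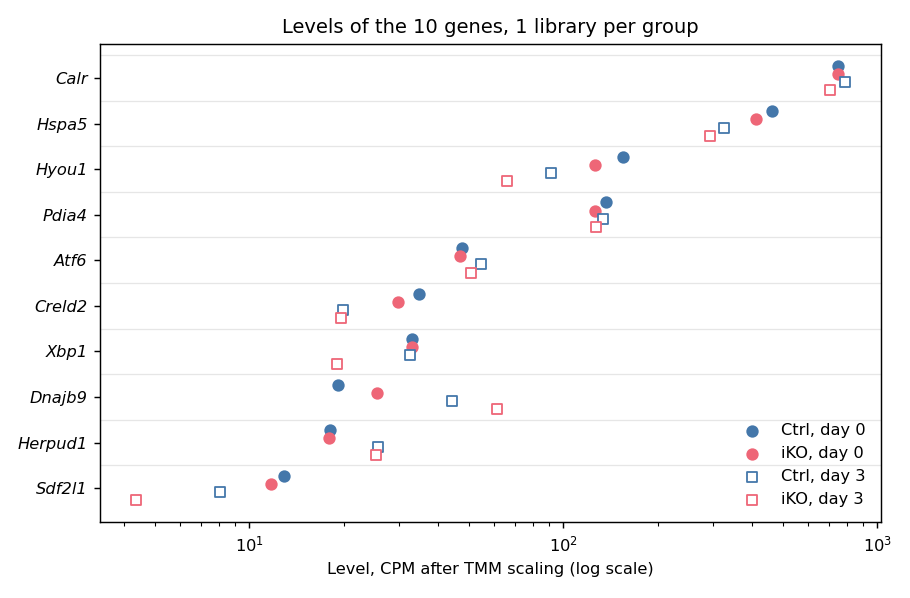
Level of each of the 10 genes in the 4 libraries, in CPM after TMM scaling on a log axis, with filled circles for day 0, open squares for day 3, blue for Ctrl and red for iKO. The 4 markers of Calr, Pdia4 and Atf6 lie close together, those of Hspa5, Hyou1, Creld2 and Sdf2l1 move left from day 0 to day 3, those of Dnajb9 and Herpud1 move right, and the iKO day 3 marker of Xbp1 stands apart at 19.1 CPM. CPM is not scaled by length, so positions compare libraries within a gene.

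The promoters of this group are known for the ER stress response element (ERSE), in which a CCAAT box bound by NF-Y and a CCACG box bound by ATF6 or XBP1 lie 9 bases apart. The windows searched run from 250 bases before to 50 bases after the RefSeq transcription start (GRCm38.p6), on both strands, and 8 of the 10 genes have one. The ERSE was found in 3 of these 8 windows, those of Hspa5, Calr and Creld2, and in 39 of all 32851 windows in the table (0.119%). A variant, ERSE-II, has ATTGG, 1 base and CCACG. It was found in the window of Herpud1 and in 12 of all windows (0.0365%). Creld2 encodes an ER protein with thioredoxin-like motifs, and Herpud1 an ER membrane protein that organises ER-associated degradation. The 200 bases before the start of these 4 genes are shown 5′ to 3′ on the strand of the gene, because they hold the element through which the chaperone genes are known to be controlled together. Capitals mark the ERSE or, in Herpud1, the ERSE-II. In Calr and Creld2 the match is on the reverse strand, so CCACG reads as CGTGG and CCAAT as ATTGG. Hspa5 is chr2:34771890-34772089 on the plus strand, Calr chr8:84846932-84847131 on the minus strand, Creld2 chr15:88819446-88819645 on the plus strand and Herpud1 chr8:94386229-94386428 on the plus strand.
Hspa5: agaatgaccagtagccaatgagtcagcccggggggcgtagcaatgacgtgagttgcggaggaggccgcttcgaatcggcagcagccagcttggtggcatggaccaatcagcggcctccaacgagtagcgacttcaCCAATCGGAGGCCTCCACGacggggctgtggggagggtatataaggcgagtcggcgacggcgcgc
Calr: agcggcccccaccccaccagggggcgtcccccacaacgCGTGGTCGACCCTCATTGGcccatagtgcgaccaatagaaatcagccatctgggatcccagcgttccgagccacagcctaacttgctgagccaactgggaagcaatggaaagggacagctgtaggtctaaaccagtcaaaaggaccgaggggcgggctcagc
Creld2: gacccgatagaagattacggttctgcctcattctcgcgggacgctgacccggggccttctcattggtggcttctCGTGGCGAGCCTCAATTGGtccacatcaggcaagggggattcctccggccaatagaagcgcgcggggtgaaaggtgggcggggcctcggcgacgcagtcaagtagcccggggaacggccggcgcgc
Herpud1: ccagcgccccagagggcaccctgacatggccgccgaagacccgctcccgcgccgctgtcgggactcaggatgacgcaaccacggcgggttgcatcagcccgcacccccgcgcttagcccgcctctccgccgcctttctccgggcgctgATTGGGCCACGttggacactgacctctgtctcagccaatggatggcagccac

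The element ended 47 bases before the start in Hspa5 and 42 bases before it in Herpud1, and 144 and 108 bases before it in Calr and Creld2. Dnajb9 and Sdf2l1, the genes that reached 2-fold between the days, held the CCACG box and the CCAAT box but not at the spacing of an ERSE. Their promoters are shown for that contrast with Hspa5, with the CCACG boxes in capitals (CGTGG where the match is on the reverse strand). Dnajb9 is chr12:44210069-44210268 and Sdf2l1 chr16:17132384-17132583, both on the minus strand.
Dnajb9: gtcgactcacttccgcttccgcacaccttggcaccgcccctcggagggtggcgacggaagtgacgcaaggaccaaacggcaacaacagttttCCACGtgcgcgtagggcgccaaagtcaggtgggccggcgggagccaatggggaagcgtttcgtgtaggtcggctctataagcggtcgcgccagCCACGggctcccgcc
Sdf2l1: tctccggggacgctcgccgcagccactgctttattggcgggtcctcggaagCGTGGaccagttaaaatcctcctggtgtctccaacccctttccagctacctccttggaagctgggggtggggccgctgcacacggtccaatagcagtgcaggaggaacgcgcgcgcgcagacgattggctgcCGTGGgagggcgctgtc

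Single boxes are common: CCACG was in 7 of the 8 windows and in 32.8% of all windows, and CCAAT in 7 of 8 and in 37.4%. Both overlap the ERSE where it is present. The core of the unfolded protein response element, searched only as TGACGTGG, was in 0 of the 8 windows and in 0.676% of all. The Hspa5 sequence above holds TGACGTGA, which differs in the last base, and forms other than TGACGTGG were not counted. An amino acid response element of the kind bound by ATF4 (TGATG, 1 base, AA) was in the window of Herpud1, on the reverse strand, and in 3.97% of all windows. The Pdia4 window held both single boxes, and the Xbp1 window held none of the 6 motifs. These are matches of letters and were not tested as binding sites.

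**Figure D2:**
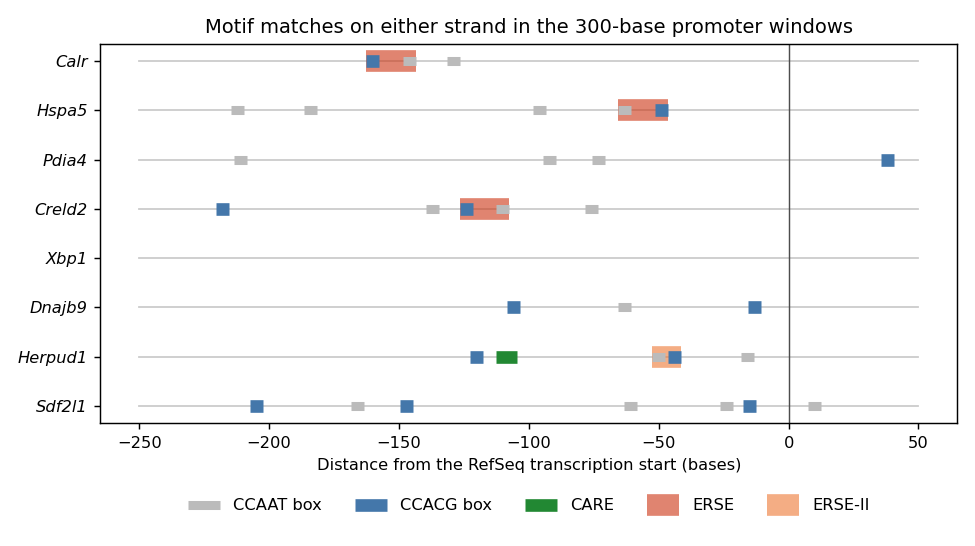
Motif matches on either strand in the promoter windows of the 8 genes with a window, plotted by distance in bases from the RefSeq transcription start, one line per gene and one colour per motif. An ERSE lies in the lines of Calr, Hspa5 and Creld2, an ERSE-II and an amino acid response element (CARE) in that of Herpud1, and no match in that of Xbp1.

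Between iKO and Ctrl each of the 10 genes differed by less than 2-fold. At day 0 none of the 10 was called, 0 higher and 0 lower, where 2.67% of the 12976 genes compared were at least 2-fold higher in iKO and 0.331% at least 2-fold lower. None reached 1.5-fold either (8.92% of all genes higher, 5.51% lower). Their median log2 ratio was -0.06, the same to 2 decimals as the -0.06 over all genes. At day 3 again 0 were called in either direction (6.27% of all genes higher, 4.76% lower), and the median was -0.12 against -0.01 over all genes. At 1.5-fold 2 of the 10 were lower, Xbp1 and Sdf2l1 (11.3% of all genes lower), and 0 were higher (15.1%). Of the 10 ratios 9 were below 0 at day 3, also with library totals in place of TMM. At day 0 the corresponding 9 became 4 with library totals, which moved the median of all genes from -0.06 to 0.06.

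Hspa5 (gene ID 14828, chr2:34772090-34776529 in GRCm38.p6, as for the other coordinates) stood at 461 CPM in Ctrl and 411 in iKO on day 0, and at 324 and 294 CPM at day 3. It was thus somewhat lower in iKO on both days, 1.12-fold at day 0 (1.09 to 1.15) and 1.10-fold at day 3 (1.06 to 1.14). With 5546 to 9366 counts per library the interval excludes equality, but it holds no spread between cultures. With library totals the day 0 log2 ratio was -0.04 in place of -0.17. In bulk RNA, fewer cells of a type and less RNA per cell cannot be told apart.

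Hyou1 (ID 12282, chr9:44379490-44392369) stood at 155 CPM in Ctrl and 126 in iKO on day 0, and at 91.3 and 66.3 CPM at day 3. Like Hspa5, its partner, it was lower in iKO on both days, 1.23-fold (1.17 to 1.29) and 1.38-fold (1.28 to 1.48). With library totals its day 0 log2 ratio was -0.17 in place of -0.30.

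Dnajb9 (ID 27362, chr12:44205897-44210068) was the only one of the 10 with a higher level in iKO on both days under TMM scaling. It stood at 19.2 CPM in Ctrl and 25.6 in iKO on day 0, and at 44.4 and 61.4 CPM at day 3. These are 1.33-fold (1.17 to 1.52) and 1.38-fold (1.27 to 1.51) higher in iKO. Its log2 ratios stayed above 0 under every alternative tried, from 0.34 to 0.52 at day 0 and from 0.37 to 0.47 at day 3.

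Sdf2l1 (ID 64136, chr16:17130138-17132383) had the fewest counts of the group, 262 and 255 at day 0 and 162 and 82 at day 3, in Ctrl and iKO. In CPM these were 12.9 and 11.7 at day 0, and 8.06 and 4.35 at day 3. At day 0 the genotypes were within counting error (1.10-fold lower in iKO, 0.923 to 1.31). At day 3 Sdf2l1 was 1.85-fold lower in iKO (1.41 to 2.45), a log2 ratio of -0.76 with the pseudocount.

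Xbp1 (ID 22433, chr11:5520641-5525993) was level in 3 libraries and low in the other. It stood at 33.1 CPM in Ctrl and 33.0 in iKO on day 0 and at 32.4 CPM in Ctrl at day 3, against 19.1 CPM in iKO at day 3. Its level in iKO at day 3 was 1.70-fold lower than in Ctrl (1.49 to 1.94), on 360 and 651 counts. At day 0 the ratio was within counting error, with an interval of 0.897 to 1.11 for iKO over Ctrl. The difference between the log2 ratios of the days, day 3 minus day 0, was -0.73 for Xbp1 and -0.63 for Sdf2l1. For the other 8 genes it lay between -0.16 and 0.20. With 1 library per group this difference could not be tested. The counts fall on a single Xbp1 transcript model, that of the unspliced form, so splicing by IRE1 was not analysed here.

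The other 5 genes showed smaller differences between the genotypes. Creld2 (ID 76737, chr15:88819646-88826681) was 1.17-fold lower in iKO at day 0 (1.05 to 1.30), at 34.8 CPM in Ctrl and 29.8 in iKO, and within counting error at day 3, at 19.8 and 19.6 CPM. With library totals its day 0 log2 ratio was -0.09 in place of -0.21. Calr (ID 12317, chr8:84842088-84846931) stood at 752 and 751 CPM at day 0 and at 790 and 709 CPM at day 3, where it was 1.11-fold lower in iKO (1.09 to 1.14). Herpud1 (ID 64209, chr8:94386429-94395371) was within counting error on both days, at 18.1 and 17.9 CPM and at 25.7 and 25.4 CPM. Atf6 (ID 226641, chr1:170704457-170868585) was also within counting error on both days, at 47.7 and 47.0 CPM and at 54.5 and 50.9 CPM. Pdia4 (ID 12304, chr6:47796141-47813512) was 1.08-fold lower in iKO at day 0 (1.02 to 1.14), at 136 and 126.5 CPM, a direction that turned with library totals. At day 3 it stood at 134 CPM in Ctrl and 127 in iKO. The day 0 ratios of Calr, Herpud1, Atf6 and Xbp1 also changed sign with library totals.

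**Figure D3:**
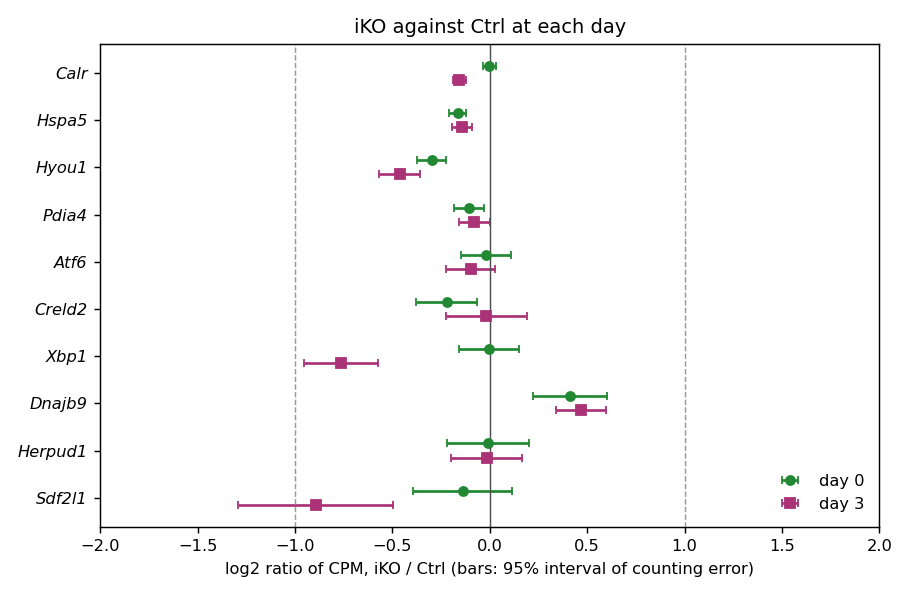
Log2 ratio of CPM in iKO over Ctrl for each of the 10 genes, without a pseudocount, at day 0 (green circles) and day 3 (purple squares), with 95% intervals of counting error and dashed lines at 2-fold. No point lies beyond a dashed line, Xbp1 and Sdf2l1 at day 3 are the points nearest to the lower one, and only Dnajb9 lies clearly to the right of 0 on both days.

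Differences between day 3 and day 0 were larger: Dnajb9 and Herpud1 were higher at day 3 in both genotypes, and Hspa5, Hyou1, Creld2 and Sdf2l1 lower. The 2 comparisons share no library with each other, but each shares libraries with the comparisons of genotype. In Ctrl 1 of the 10 was called higher, Dnajb9, and 0 lower, where 14.6% of all genes were called higher and 15.1% lower. At 1.5-fold 1 was higher and 3 lower, Hyou1, Creld2 and Sdf2l1 (25.8% and 26.7% of all genes). In iKO 1 was called higher, Dnajb9, and 1 lower, Sdf2l1 (11.2% and 11.4% of all genes). At 1.5-fold 1 was higher and 3 lower, Xbp1, Sdf2l1 and Hyou1 (21.5% and 21.9% of all genes), with Creld2 just outside at a log2 ratio of -0.58. These counts are near the background shares for a group of 10.

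Among the chaperones, day 3 had the lower Hspa5 level, by 1.42-fold in Ctrl (1.38 to 1.47) and by 1.40-fold in iKO (1.351 to 1.45). Hyou1 was 1.70-fold lower in Ctrl (1.60 to 1.80) and 1.90-fold lower in iKO (1.78 to 2.03). Sdf2l1 was 1.60-fold lower in Ctrl (1.31 to 1.96) and 2.69-fold lower in iKO (2.09 to 3.50). Its call in iKO rests on 82 counts at day 3 and was lost with a pseudocount of 5 CPM. Creld2 was 1.75-fold lower in Ctrl (1.55 to 1.99) and 1.52-fold lower in iKO (1.34 to 1.73).

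In the opposite direction, Dnajb9 was 2.31-fold higher at day 3 in Ctrl (2.05 to 2.61) and 2.40-fold higher in iKO (2.17 to 2.66). Herpud1 was 1.42-fold higher in both genotypes (1.24 to 1.63 in Ctrl, 1.24 to 1.62 in iKO). The Hspa5 level was thus lower and the Dnajb9 level higher in both day 3 libraries than in both day 0 libraries. Other J-domain genes of the ER were mixed in Ctrl. Dnajb11 and Dnajc10 were lower at day 3, with log2 ratios of -0.34 and -0.53. Dnajc3, Sec63 and Dnajc1 were higher, at 0.26, 0.23 and 0.19. The transcription factor genes moved little in Ctrl, Xbp1 1.02-fold lower (0.915 to 1.14) and Atf6 1.14-fold higher (1.05 to 1.25). In iKO Xbp1 was 1.73-fold lower at day 3 (1.52 to 1.97), a value that uses the same low iKO day 3 library as the comparison of genotypes. Pdia4 was within counting error between the days in both genotypes.

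**Figure D4:**
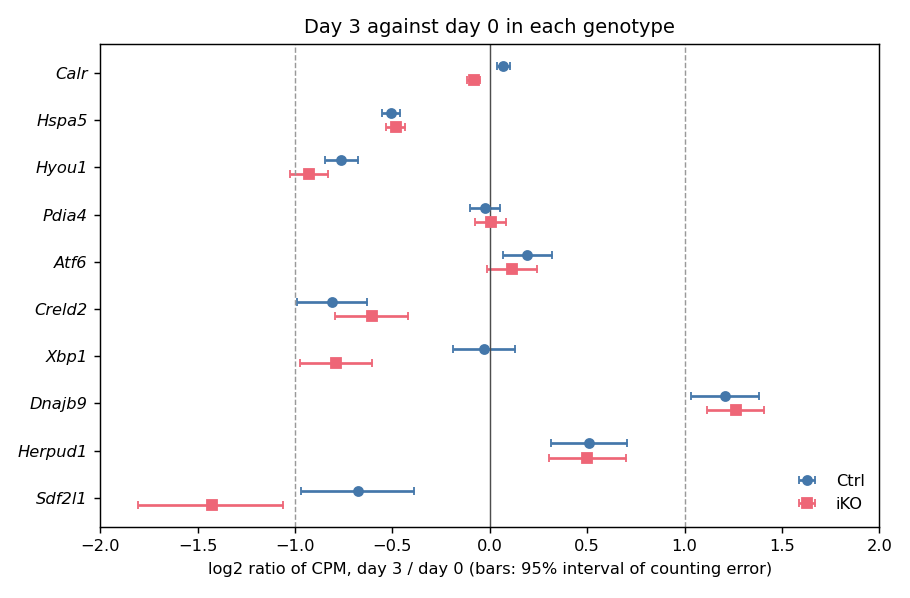
Log2 ratio of CPM at day 3 over day 0 for each of the 10 genes, without a pseudocount, in Ctrl (blue circles) and iKO (red squares), with 95% intervals of counting error and dashed lines at 2-fold. Dnajb9 lies beyond the upper line in both genotypes, Sdf2l1 beyond the lower line in iKO, Hspa5, Hyou1 and Creld2 to the left of 0 in both, and Xbp1 near 0 in Ctrl and at 1.73-fold lower in iKO.

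The promoter elements did not sort the members by direction. Of the 4 genes with an ERSE or ERSE-II, Hspa5 and Creld2 were lower at day 3 in both genotypes, Herpud1 was higher in both, and Calr was 1.05-fold higher in Ctrl and 1.06-fold lower in iKO. Of all genes in the files, 33 had an ERSE or ERSE-II in a window and 26 passed the minimum level. Their median log2 ratio of iKO to Ctrl was -0.13 at day 0 and -0.07 at day 3, against -0.06 and -0.01 over all genes. Between the days it was 0.03 in Ctrl and -0.10 in iKO, against -0.02 and -0.01.

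The rest of the pathway was described with lists of related genes. In the list of 12 sensors, proteases and transcription factors, which includes Xbp1 and Atf6, 1 gene was called higher in iKO on each day, Creb3l1 both times, and 0 lower (2.67% of all genes higher at day 0 and 6.27% at day 3). Creb3l1 (OASIS) encodes a transcription factor held in the ER membrane and released by cleavage, as ATF6 is, and is known in astrocytes. Its level was 11.3 CPM in Ctrl and 39.9 in iKO at day 0, 3.54-fold higher (3.06 to 4.12), and 6.91 and 34.8 CPM at day 3, 5.04-fold higher (4.19 to 6.09). Both iKO libraries lay above both Ctrl libraries. Its relatives Creb3 and Creb3l2 were between 24.8 and 38.6 CPM in all libraries, with log2 ratios of iKO to Ctrl of 0.28 and 0.22 at day 0 and -0.07 and 0.30 at day 3.

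The PERK gene, Eif2ak3, was level, at 41.9 and 40.4 CPM at day 0 and 42.0 and 39.9 CPM at day 3 in Ctrl and iKO. Ern1, which encodes IRE1, was lower in iKO on both days on few counts, at 6.54 and 4.54 CPM and at 11.9 and 8.004 CPM. Atf6b, a relative of Atf6, had log2 ratios of 0.06 at day 0 and -0.10 at day 3. The protease genes Mbtps1 and Mbtps2 had log2 ratios of -0.20 and -0.13 at day 0 and -0.36 and 0.10 at day 3. Atf4 was slightly lower in iKO at day 0, 158 against 184 CPM, and 1.58-fold higher at day 3 (1.51 to 1.66), 221 against 139 CPM. Ddit3 (CHOP) was 1.498-fold higher at day 0 (1.22 to 1.85), 11.2 against 7.48 CPM, and 1.37-fold higher at day 3 (1.17 to 1.61), 19.2 against 14.03 CPM.

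The PERK and ATF4 target genes differed more between the genotypes at day 3 than the 10 genes did. Of the 15 that passed the minimum level, 7 were called higher in iKO at day 3 (6.27% of all genes), 0 lower and 15 above 0, with a median log2 ratio of 0.98. With library totals 6 were called, and with deposited FPKM 5. Nupr1, which is among the 15, stood at 0.197 CPM in Ctrl at day 0 and 0.298 CPM in Ctrl at day 3. It passed the minimum level only through the iKO libraries, so its ratio was not independent of that filter. Trib3 was also near the floor, at 0.398 CPM in Ctrl at day 3. At day 0, 1 of the 15 was called higher, Sesn2, and 0 lower (2.67% and 0.331% of all genes), with a median of 0.24 and 10 above 0. Chac1, a glutathione-degrading enzyme, had a log2 ratio of 2.51 at day 3, at 14.9 CPM in iKO and 1.79 in Ctrl. Atf5, a transcription factor of the ATF4 branch, had 2.28, at 192 and 38.8 CPM. Sesn2 (sestrin 2), which binds GATOR2, was at 161 CPM in iKO and 67.5 in Ctrl at day 0, a log2 ratio of 1.24, and Ddit4, an inhibitor of mTORC1 signalling, at 79.2 and 39.5 CPM, a log2 ratio of 0.99. These genes also respond to stresses outside the ER, and which stress, if any, acted was not tested.

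Set together, 6 ER lists (sensors and factors, Hsp70 and lectin chaperones, disulfide formation, ER-associated degradation, translocation and glycosylation, and ER to Golgi transport) held 110 compared genes that are not among the 10. These had a median log2 ratio of iKO to Ctrl of -0.08 at day 0 and 0.07 at day 3. At day 0, 1 of them was called higher (Creb3l1) and 0 lower, against 2.67% and 0.331% of all genes. At day 3, 2 were called higher, Creb3l1 and Kdelr3, and 0 lower, against 6.27% and 4.76% of all genes. The 110 thus had a smaller share of calls than all genes at day 3, in a comparison not matched by level. Kdelr3 encodes a receptor that returns escaped ER proteins from the Golgi. It stood at 7.13 and 7.94 CPM at day 0 and at 2.04 and 7.26 CPM at day 3, in Ctrl and iKO, so the Ctrl day 3 library was the low one. Of the 18 genes of the Hsp70 and lectin chaperone list, 0 were called between the genotypes on either day. At 1.5-fold at day 3, Canx and Sil1 were higher in iKO and Sdf2l1 lower (Canx was chosen after its values were seen). Over all genes 15.1% were higher and 11.3% lower, so these counts are near or below the background shares. Canx encodes calnexin, the membrane lectin chaperone related to calreticulin, and stood at 611 CPM in Ctrl and 938 in iKO, while Calr in the same libraries was 1.11-fold lower in iKO. Sil1, another exchange factor for BiP, stood at 32.4 and 50.6 CPM.

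In the lists for disulfide formation (17 genes), ER-associated degradation (24 compared) and translocation and glycosylation (30), 0 genes were called between the genotypes on either day. Over all genes 2.67% were called higher in iKO and 0.331% lower at day 0, and 6.27% and 4.76% at day 3. At day 0 such shares give few calls in lists of this size. The largest ratios of the 3 lists at day 0 were Pdia5 at -0.46, Selenos at 0.62 and Srp68 at -0.41. At day 3 the largest was Qsox1 at -0.37 in the disulfide list and Sec11c at 0.45 in the translocation and glycosylation list. Between the days in Ctrl, 4 of 30 translocation and glycosylation genes and 2 of 17 disulfide genes were called lower and 0 higher, with medians of -0.64 and -0.48. In iKO 0 of 30 and 2 of 17 were called lower and 0 higher, with medians of -0.36 and -0.47. Of the 24 degradation genes, 2 were called higher and 1 lower in Ctrl, and 1 and 1 in iKO. At 2-fold these counts are near or below the shares over all genes, 14.6% higher and 15.1% lower in Ctrl and 11.2% and 11.4% in iKO. At 1.5-fold in Ctrl, 16 of 30 translocation and glycosylation genes and 8 of 17 disulfide genes were lower (26.7% of all genes). Higher were 1 of 30 and 0 of 17 (25.8%). In iKO 5 of 30 and 5 of 17 were lower (21.9%), and 1 of 30 and 0 of 17 higher (21.5%). Below 0 in Ctrl were 27 of 30 and 14 of 17, against a median of -0.02 over all genes. Stt3a, a catalytic subunit of oligosaccharyltransferase, had a log2 ratio of -1.22 in Ctrl. Pdia5, a disulfide isomerase, had -1.995 in Ctrl and -1.74 in iKO, and the ER peroxiredoxin Prdx4 had -1.74 and -1.26. In the degradation list Os9, a lectin that hands misfolded glycoproteins to the degradation complex, was higher at day 3, by 1.496 in Ctrl and 1.04 in iKO on the log2 scale. Edem1, which trims mannose from such proteins, was lower, at -1.24 and -1.16. In the Hsp70 and lectin list, Manf, a secreted ER stress protein, had -1.05 in Ctrl, from 127 CPM at day 0 to 61.1 CPM.

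Chaperones of other compartments were set beside them. Of the 10 mitochondrial chaperone and protease genes, 10 were above 0 at day 3 for iKO against Ctrl. Their median was 0.43, against -0.01 over all genes. Of these 10, 1 was called higher (6.27% of all genes) and 0 lower (4.76%). At 1.5-fold 3 were higher (15.1%) and 0 lower (11.3%). Hspa9, the mitochondrial Hsp70, was called higher, at 678 CPM against 329 CPM (2.06-fold, 1.999 to 2.12), a call that was lost with library totals and with deposited FPKM. At day 0 all 10 were below 0, with a median of -0.17 against -0.06 over all genes, and 7 were below 0 with library totals. The 14 cytosolic heat shock genes had medians of -0.22 at day 0 and -0.08 at day 3 with 0 called. Over all genes 2.67% were called higher and 0.331% lower at day 0, and 6.27% and 4.76% at day 3. Hspa1a, the inducible cytosolic Hsp70, had the largest ratios on both days, 0.66 and 0.87, at levels from 0.738 to 6.31 CPM.

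**Figure D5:**
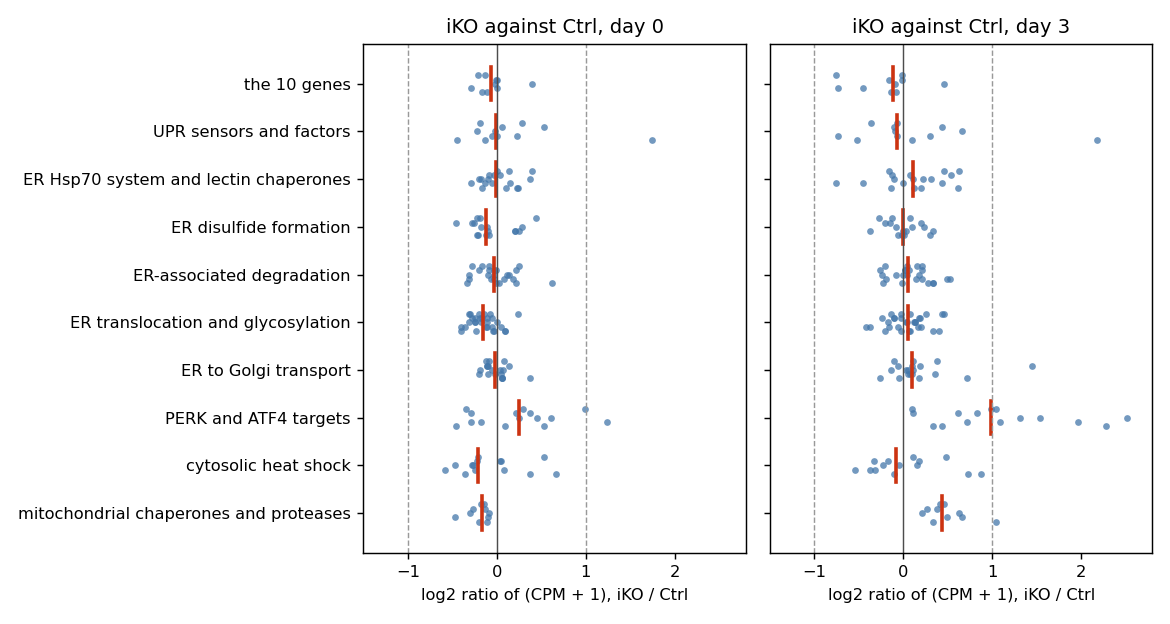
Log2 ratio of CPM plus 1 in iKO over Ctrl at day 0 and day 3, with a point for each gene of a list, a red bar at the list's median and dashed lines at 2-fold. The 10 genes and the ER lists lie around 0 on both days, Creb3l1 is the far right point of the sensor list, and at day 3 the PERK and ATF4 targets have their median at 0.98 and the mitochondrial chaperones at 0.43.

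The authors' deposited table for day 3 lists 1774 genes, each with an absolute log2 ratio of at least 1.00, and 0 of the 10 genes are among them. The same authors' deposited table gives Creb3l1 a log2 ratio of 2.25 (FDR 5.81e-81) and Kdelr3 1.75 (FDR 5.98e-13), iKO over Ctrl. That FDR compares 2 libraries, not cultures. The authors' deposited table for day 0 is held only in part here and was not read for absence.

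For 5 of the 10 genes the counts are spread over more than 1 transcript model. Hspa5 counts fell mainly on 1 of its 2 models, with 91.4% to 96.2% in each library. The shares of Atf6 and Hyou1 moved widely between libraries, for instance from 31.8% in Ctrl at day 0 to 15.3% in Ctrl at day 3 for 1 of the 2 Atf6 models. They are estimates over overlapping models and were not read as isoform changes, so gene sums were used. By the annotation, the exons of Dnajb9 and Pdia4 each overlap those of a microRNA gene (Mir5627 on the opposite strand and Mir704 on the same strand).

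Markers of several cell types differed between the same libraries. The astrocyte list (10 genes) summed to 1299 CPM in Ctrl and 2504 in iKO on day 0, and to 12833 and 22029 CPM at day 3, with 10 of 10 above 0 in iKO at day 0 and 8 of 10 at day 3. Apoe alone made up 6765 and 12096 CPM of the day 3 sums. Aldh1l1, 1 of the 2 genes below 0 at day 3, stood at 797 CPM in Ctrl and 567 in iKO. The oligodendrocyte lineage list summed to 4784 and 4278 CPM at day 0 and to 5200 and 3606 CPM at day 3. In Ctrl at day 0 most of that sum was Olig1 (2862 CPM) and Olig2 (1546 CPM). Of its 11 compared genes, 4 were called lower in iKO at day 0 (0.331% of all genes) and 9 at day 3 (4.76%). Sox10, which defines that lineage, stood at 23.7 CPM in Ctrl and 7.57 in iKO on day 0, and at 132 and 6.15 CPM at day 3. The neuron list summed to 1088 and 979 CPM at day 0 and to 1756 and 929 CPM at day 3. Its 9 compared genes did not follow the sum at day 0, when 6 were above 0 in iKO and the median was 0.39. Called higher at day 0 was 1, Stmn2 (2.67% of all genes). Stmn2 had a low level, at 2.31 CPM in Ctrl at day 0 and 0.0995 CPM in Ctrl at day 3. At day 3, 5 were called lower (4.76% of all genes). Dcx stood at 9.10 and 17.0 CPM at day 0 and at 147 and 15.4 CPM at day 3. The neural stem list summed to 7497 and 8019 CPM at day 0 and to 11436 and 11077 CPM at day 3. Its 12 genes did not move together: between the days in Ctrl 3 were called higher and 4 lower (14.6% and 15.1% of all genes). Slc1a3 went from 1307 to 5788 CPM there, and Nes from 849 to 235 CPM. In iKO against Ctrl, Hes5 had log2 ratios of -1.02 at day 0 and -2.79 at day 3, and Prom1 had 1.42 at day 3. Microglia markers (7 genes) summed to 1.99 to 8.81 CPM, endothelial markers (6 genes) to 1.69 to 4.03 CPM and fibroblast and mural markers (8 genes) to 7.82 to 20.4 CPM, and Aif1 had 0 counts in 3 libraries and Cldn5 in 3. The lower Xbp1 and Sdf2l1 levels in iKO at day 3 and the higher Creb3l1 levels in iKO were thus measured in libraries that also differed in astrocyte, oligodendrocyte and neuron markers. The part of these cell types in the results was not tested.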

How the data were processed

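RNA-seq was available for 4 libraries, 1 per group, and groups were taken from the genotype, treatment and title labels. Per the submitters' processing notes, HISAT, Bowtie2 and StringTie were used with the mm10 build, with no versions given. The annotation release and the tool that made the counts are not given in these sources. Each deposited file has 1 row per transcript, 55122 in all, with an expected count that need not be whole. The second deposited value, which the header leaves without a unit, was taken as FPKM: its ratio to count per length was nearly constant within a library (interquartile range over median 0.0314 to 0.032). Per the file headers, the authors' tables of differential genes hold the log2 of iKO over Ctrl with an FDR, a kind of q-value.

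Expected counts were summed per gene, rounded, and scaled with edgeR 4.0.16 (TMM) in R 4.3.3. Symbols matched RefSeq for 17498 of 17621 gene IDs, and 19 came from the authors' tables. Comparisons took the genes whose mean reached 1 CPM, which left out 4645. Intervals are exact conditional (Clopper-Pearson) 95% intervals (scipy 1.17.1), which cover counting error only. They can be too narrow even for that, since reads without molecular identifiers can be copies of 1 molecule. The ratio code was tested on simulated counts. Promoter windows were read from RefSeq's GRCm38.p6 table.

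The 10 genes, the 16 lists and the motifs were chosen with earlier results of these data known. The rule for named genes takes all 10, the 12 of the sensor list for iKO against Ctrl, and 2 genes with the largest ratios per other list and comparison. Other settings tried were pseudocounts of 0.1 and 5 CPM, minimum levels of 0 and 5 CPM, scaling by library totals or by size factors from DESeq2 1.42.0, FPKM, and calls at 1.5-fold. Protein ends, which had been planned, were not analysed here. A gene that this rule takes is not reported here.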

Additional observations from a re-analysis of the deposited data

Results flagged for a closer look

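Calr had ratios of opposite sign between the days in the 2 genotypes. Its log2 ratio of day 3 to day 0 was 0.06978 in Ctrl, 1.05-fold higher (1.03 to 1.07), and -0.08345 in iKO, 1.06-fold lower (1.04 to 1.08). Both intervals exclude equality on 13372 to 16369 counts per library, but they cover counting error only, and the difference was not tested because each group had 1 library. Both signs held under the alternatives tried, with ranges of 0.07 to 0.15 in Ctrl and -0.22 to -0.07 in iKO.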

How the results depend on the processing

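No paired analysis was possible because each group had 1 library, and for the same reason no replicate could be left out. Of 280 values of the 10 genes under an alternative, 250 stayed within counting error of the value reported and 0 that were called changed sign. A change of the minimum level leaves a gene's ratio as it is, so those values are among the 250 by construction. Of 40 ratios, 9 changed sign, only with library totals or deposited FPKM, and the largest of these was 0.1129 in size as reported. The number of the 10 genes called lower between the days in iKO, 1 as reported, was 0 with a pseudocount of 5 CPM, 2 with library totals, 2 with deposited FPKM and 3 at 1.5-fold. At 1.5-fold 2 were lower in iKO at day 3, and 3 were lower between the days in Ctrl, against 0 at 2-fold. Over all genes, the numbers called higher and lower in iKO at day 0 were 347 and 43. They became 706 and 80 with a pseudocount of 0.1 CPM, 111 and 13 with 5 CPM, 468 and 25 with library totals, and 252 and 19 with FPKM. At day 3 they were 813 and 618, against 430 and 358 with 5 CPM, 685 and 698 with library totals, and 477 and 480 with FPKM. Between the days in Ctrl 1894 were higher, against 1213 with 5 CPM. Between the days in iKO they were 1459 and 1485, against 1203 and 1820 with library totals, 932 and 1474 with FPKM. Library totals moved the median of all genes from -0.06 to 0.06 at day 0 and from -0.01 to -0.13 between the days in iKO. The planned comparison of Xbp1 transcript shares was not run, since 1 model was analysed.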
